A study of Homo sapiens with 4 samples.

Results

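The genes described are 6 metallothioneins (MT2A, MT1E, MT1F, MT1G, MT1M and MT1X), their transcription factor MTF1 and the zinc exporter SLC30A1. They were taken by gene symbol, as 8 of the 24925 genes named in the deposited results table, and the estimated counts of their transcripts were summed per gene and library. Of the 8 genes, 7 had values in the 4 libraries and MT1G had none. Across the series 15220 genes had values.

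The libraries came from PANC-1, a human pancreatic ductal adenocarcinoma cell line, untransduced and labelled wild type (n = 2), and from PZT-2 (n = 2), a knockdown of the H2A.Z isoforms in the same line. PZT-2 is 1 clone, made with lentiviral short hairpin RNAs against the H2A.Z genes and selected with puromycin, so the knockdown, the transduction and the history of the clone cannot be told apart here. Both lines grew in DMEM with fetal bovine serum, and the labels name no added metal. The study calls the replicates biological, while the labels do not say whether they came from separate cultures, and the p-values measure only the spread between these libraries.

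Metallothioneins are small, cysteine-rich proteins of the cytosol that bind zinc, copper and cadmium, and they buffer free zinc and protect cells from toxic metals. MTF1 senses zinc through its zinc fingers and binds metal response elements in the promoters of metallothionein genes and of SLC30A1. SLC30A1 sits in the plasma membrane and carries zinc out of the cytosol.

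The metallothionein members lie in 1 cluster on chromosome 16 and their coding sequences are closely alike, which bears on each metallothionein count given here because the authors' tool divided reads between similar transcripts. In GENCODE 29 on GRCh38, MT2A is at chr16:56608199-56609497, MT1E at chr16:56625475-56627112, MT1M at chr16:56632233-56633986, MT1F at chr16:56657694-56660698 and MT1X at chr16:56682424-56684196, all on the plus strand, and MT1G is at chr16:56666731-56668065 on the minus strand. MTF1 (chr1:37809567-37859620) and SLC30A1 (chr1:211571568-211578742) are on the minus strand of chromosome 1. The coding sequence of each metallothionein member has 186 bases, stop codon included, for 61 residues over 3 exons. The first 30 bases of the spliced coding sequences, read 5′ to 3′ from GENCODE 29, are shown so that the likeness can be seen, with capitals where a base differs from MT2A.
MT2A: atggatcccaactgctcctgcgccgccggt
MT1E: atggaCcccaactgctcTtgcgccAcTggt
MT1F: atggaCcccaactgctcctgcgccgcTggt
MT1G: atggaCcccaactgctcctgTgccgcTggt
MT1M: atggaCcccaactgctcctgcAccAcTggt
MT1X: atggaCcccaactgctcctgcTcGCcTgTt

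MT1X differs from MT2A at 6 of these bases and MT1F at 2. Over the whole coding sequence, identity to MT2A was lowest for MT1M (89.8%) and highest for MT1G (95.2%). Of the 31-base words of its GENCODE transcript, the length used to assign reads, 92.7% occurred in no other gene for MT2A, 91.7% for MT1F, 84.7% for MT1E, 81.4% for MT1M, 80.7% for MT1X and 68.6% for MT1G. MT1X shared 66 such words with MT1G and 50 with MT2A. The GENCODE transcripts of MT2A, MT1E, MT1F and MT1M were longer than those the authors quantified. The lengths were 786 against 499 bases for MT2A and 829 against 464 for MT1M, whereas MT1X had 450 against 468. The percentages in the authors' index may therefore differ and were not computed. Levels of single metallothionein genes are therefore less certain than the sum over the family, whereas SLC30A1 shared no word with another gene.

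Promoters were searched for the core of the metal response element, TGCACNC or TGCGCNC, on both strands, because MTF1 binds it. RefSeq promoters of GRCh38.p14, from 250 bases before to 50 after the start, covered MT2A, MT1X, MTF1 and SLC30A1, which is 4 of the 8 genes. MT2A (chr16:56608334-56608633) held 8 matches, MT1X (chr16:56682220-56682519) held 4, SLC30A1 (chr1:211579112-211579411) held 2 and MTF1 held 0. Of 35116 promoters of this length, 29.6% held at least 1 match, 8.6% at least 2, 0.601% at least 4 and 0.0199% at least 8. Examples are shown with the matched letters in capitals, each written on the strand of the match. The distance runs from its farthest upstream matched base to the RefSeq start.
MT2A, 54 bases before the start, same strand, chr16:56608523-56608543: gggctttTGCACTCgtcccgg
MT1X, 122 bases before the start, same strand, chr16:56682341-56682361: gggttgcTGCACCCggcccag
MT1X, 53 bases before the start, same strand, chr16:56682410-56682430: gggcctcTGCGCCCggccctc
SLC30A1, 49 bases before the start, opposite strand, chr1:211579197-211579217: tttgcttTGCACTCggaaccc

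These are matches of letters, and no binding was measured in these libraries.

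The 4 libraries held 12861091 to 15717154 estimated counts. Values are given as normalized counts, which are counts scaled to a library of average effective size and are compared between libraries, or as TPM, the usual transcript abundance, which are per length and are compared between genes. A gene is called where its adjusted p over all genes tested is under 0.05. The targeted genes were lower in PZT-2, as the labels say. H2AFZ went from 6390 and 6034 normalized counts in PANC-1 to 2212 and 2258 in PZT-2. This was a change of -1.47 on the log2 scale (adjusted p = 6.16e-05 from edgeR's quasi-likelihood test). H2AFV changed less, by -0.36 or a fold of 0.781 (adjusted p = 0.00562 from edgeR). The H2AFV call held in 12 of 14 alternatives, with log2 fold changes of -0.39 to -0.25. It was lost with the most abundant transcript alone (adjusted p = 0.069 from edgeR) and with PZT-2 replicate 1 left out (log2 fold change -0.32). Markers of pancreatic duct and epithelium had values for 8 of 10 genes, with CFTR among those without, and their summed level was 88298 to 89657 normalized counts in PANC-1 and 47287 to 48240 in PZT-2, with KRT8, KRT18, KRT19, MUC1 and CDH1 lower, CDH1 at 0 in 1 PZT-2 library, and SOX9 higher. None of 6 acinar and 5 endocrine markers had values. Immune markers had values for 3 of 6 genes (sums 1585 to 1688 in PANC-1 and 1654 to 1727 in PZT-2), without PTPRC, CD3E and CD79A. CD68 made up nearly all of these sums, and CD14 was called higher, with 3.38 and 0 normalized counts in PANC-1 and 16.1 and 31.6 in PZT-2. Fibroblast and endothelial markers had values for 3 of 9 (515 to 546 and 157 to 189), without DCN, VWF and CDH5. COL1A1, called lower, made up most of these sums, with 494 and 531.4 normalized counts in PANC-1 and 170.1 and 135.5 in PZT-2. PDGFRB and PECAM1 were not called. The part of these shifts in the results that follow was not tested, and in bulk libraries fewer cells with a transcript and less of it per cell cannot be told apart.

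MT1X rose about 2-fold in PZT-2 and MT1M rose from a low level, whereas MT2A and MT1E, which supplied most metallothionein RNA of the members, and MTF1 did not pass the test. Of the 7 members with values, edgeR called 2 higher and 0 lower, where 28.4% of all 15100 genes tested were called, 14.7% (2222 genes) higher and 13.7% (2063) lower. At an unadjusted p under 0.05 there were 3 members higher and 0 lower, and DESeq2 and limma-trend also called 0 lower. On log2(TPM + 1) the calls over all genes split into 2369 higher and 1446 lower. For 5 members (MT1E, MT1F, MT1M, MT1X and SLC30A1) the lower PZT-2 value exceeded the higher PANC-1 value, and for 0 members the reverse held. Over all genes tested the lines did not overlap for 66.3%, with PZT-2 above for 33.3% and below for 33%. The share of members called higher, 28.6%, rests on 2 genes. The median log2 fold change was 0.18 over the members and 0.00 over all genes. All 7 passed the filter on low counts, MT1F and MT1M with 8 to 25 and 9 to 41 counts per library.

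**Figure D1:**
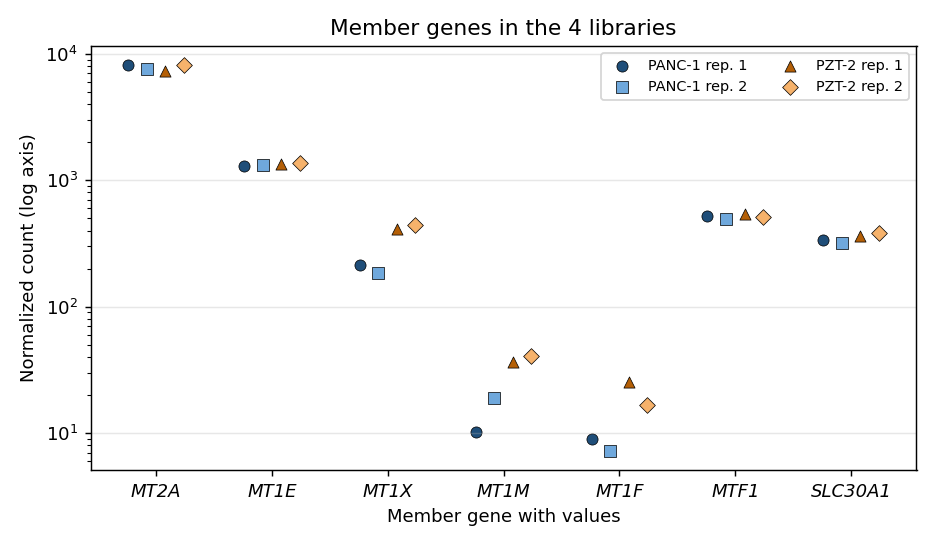
Normalized counts (y axis, log scale) of the 7 member genes with values in each of the 4 libraries; each marker is 1 library. MT1X, MT1M and MT1F show a visible gap between the PANC-1 and the higher PZT-2 markers, whereas the 4 libraries of MT2A, MT1E and MTF1 lie almost level.

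MT2A, the main metallothionein of most human tissues, had 8088 and 7626 normalized counts in PANC-1 and 7265 and 8114 in PZT-2. The groups overlapped, with the lowest and the highest value both in PZT-2. The fit gave a log2 fold change of -0.03 with a standard error of 0.0674 (adjusted p = 0.779). The sign of this value was not stable, since it was 0.036 on the TPM scale and turned to 0.007 with PANC-1 replicate 1 left out and to 0.046 with PZT-2 replicate 1 left out. Per length, MT2A was at 2853 ± 24.1 TPM (SD, n = 2) in PANC-1 and 2930 ± 229 TPM (SD, n = 2) in PZT-2, rank 36 by mean TPM of the 15220 genes.

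MT1E, the next most abundant member, had 1306 and 1328 normalized counts in PANC-1 and 1343 and 1366 in PZT-2. The PZT-2 values were the higher ones without overlap, by a fold of 1.03. MT1E was not called (log2 fold change 0.04 with a standard error of 0.0585, adjusted p = 0.661). Nearly all of its counts came from the transcript NM_175617, and NM_001363555 added 25.7 to 48.3 counts per library. Per length its level was 448 ± 20.5 TPM (SD, n = 2) in PANC-1 and 482 ± 3.76 TPM (SD, n = 2) in PZT-2.

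MT1X, whose product binds metals like that of MT2A, had 213 and 185 normalized counts in PANC-1 and 412 and 444 in PZT-2. Each PZT-2 library was well above each PANC-1 library, and the means were 199 ± 19.4 (SD, n = 2) and 428 ± 22.8 (SD, n = 2). The fold was 2.16, or 1.11 on the log2 scale with a standard error of 0.110 (adjusted p = 0.00114). In TPM its level went from 79.3 ± 4.91 (SD, n = 2) to 179 ± 9.57 (SD, n = 2). MT1X passed the threshold in 14 of 14 alternative settings, with log2 fold changes of 1.00 to 1.20 and adjusted p from 5.20e-07 to 0.0153. Of all genes tested, 4.82% were higher by a log2 fold change of at least 1.

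MT1M had 10.1 and 19.0 normalized counts in PANC-1 and 36.2 and 40.5 in PZT-2. The groups did not overlap, although the PANC-1 libraries were unequal. The means were 14.6 ± 6.26 (SD, n = 2) and 38.4 ± 3.04 (SD, n = 2), and the log2 fold change of 1.37 had a standard error of 0.384 (adjusted p = 0.0402). Among other settings, this call was lost with the Wald test of DESeq2 (adjusted p = 0.132), with the most abundant transcript of each gene tested alone (0.1035) and with 1 library left out, namely replicate 1 of PANC-1 (0.101) and replicates 1 (0.0962) and 2 (0.150) of PZT-2, in a range from 0.0141 to 0.150 over 13 alternatives.

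MT1F was rarer still, with 9.003 and 7.23 normalized counts in PANC-1 and 25.2 and 16.8 in PZT-2. The lines did not overlap, and the PZT-2 libraries were unequal (means of 8.12 ± 1.25 for PANC-1 and 21.0 ± 5.91 for PZT-2, SD, n = 2 each). Its log2 fold change of 1.37 equalled that of MT1M to 2 decimals but had a larger standard error of 0.453, and MT1F was not called (adjusted p = 0.0671). It passed with limma-trend on log2(TPM + 1), where the adjusted p was 0.0118, and on log2(TPM + 0.1), where it was 0.0117, and in no other of 13 alternatives. MT1G, with the transcripts NM_005950 and NM_001301267, was listed without values and counted as not detected, so neither a level nor a fold change is given.

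**Figure D2:**
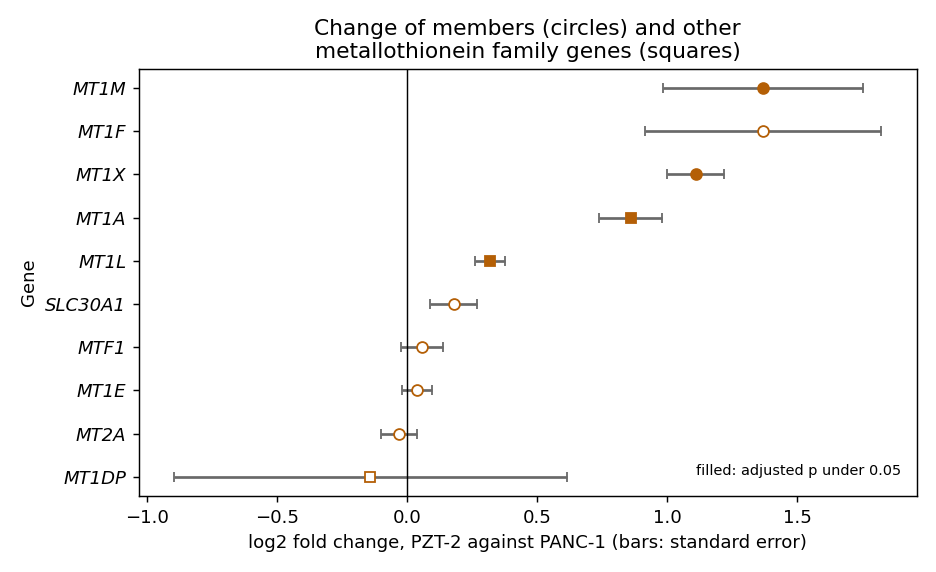
Log2 fold change of PZT-2 against PANC-1 with its standard error (x axis) for each member (circles) and each other metallothionein family gene with values (squares); filled symbols passed an adjusted p of 0.05. MT1M, MT1X, MT1A and MT1L are filled and to the right of 0, and MT2A, MT1E and MTF1 lie within 0.06 of 0.

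MTF1, the metal-sensing factor, had 520 and 492 normalized counts in PANC-1 and 539 and 514 in PZT-2. The groups overlapped (log2 fold change 0.06 with a standard error of 0.0805, adjusted p = 0.637). Its level was 8.07 ± 0.168 TPM (SD, n = 2) in PANC-1 and 8.71 ± 0.314 TPM (SD, n = 2) in PZT-2. The counts report its RNA, not its binding or activity.

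SLC30A1, the plasma membrane zinc exporter, had 334 and 321 normalized counts in PANC-1 and 360 and 383 in PZT-2. PZT-2 was higher without overlap, with means of 328 ± 9.47 (SD, n = 2) and 372 ± 15.8 (SD, n = 2). SLC30A1 was not called (log2 fold change 0.18 with a standard error of 0.0910, adjusted p = 0.187), nor was it in any of 14 alternatives (adjusted p from 0.0818 to 0.553). Per length its level was 21.8 ± 0.152 TPM (SD, n = 2) in PANC-1 and 25.7 ± 0.995 TPM (SD, n = 2) in PZT-2. A p that misses the threshold does not show that MT2A, MT1E, MTF1 or SLC30A1 were at the same level in both lines.

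By TPM, which allows levels of different genes to be compared, the order in both lines began with MT2A, MT1E, MT1X and SLC30A1, each above the next in every library. Below them the order differed between the lines. In PANC-1, MTF1 (8.18 and 7.95 TPM) came before MT1M (4.08 and 7.93 TPM) and MT1F (3.49 and 3.21 TPM), with MTF1 and the higher MT1M library nearly equal. In PZT-2, MT1M (15.3 and 17.2 TPM) came first and MT1F (10.9 and 7.44 TPM) overlapped MTF1 (8.94 and 8.49 TPM).

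The members belong to a larger family. Of 17 metallothionein family genes and pseudogenes listed, 8 had values, and their median log2 fold change was 0.59. Of these 8, 4 were called higher (MT1A, MT1L, MT1M and MT1X) and 0 lower, or 5 and 0 at an unadjusted p under 0.05. Over all genes tested, 14.7% were called higher and 13.7% lower. MT1A, a further metal-binding metallothionein, had 135 and 138 normalized counts in PANC-1 and 263 and 235 in PZT-2. The lines did not overlap, and the rise of 0.86 on the log2 scale (adjusted p = 0.00362) was called in 14 of 14 alternatives. MT1L, annotated as a transcribed pseudogene, had 1500 and 1506 in PANC-1 and 1872 and 1888 in PZT-2. Its log2 fold change was 0.32 (adjusted p = 0.00782), and the call was lost with PZT-2 replicate 1 (0.0567) or replicate 2 (0.0721) left out. The pseudogene MT1DP had 2.01 to 8.90 normalized counts in all libraries and overlapped. MT1B, MT1H, MT1HL1, MT3, MT4, MT1IP, MT1JP and MT1CP had no values.

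Summed over the 8 genes, which does not depend on how reads were divided between them, metallothionein RNA was 11268 and 10815 normalized counts in PANC-1 and 11217 and 12113 in PZT-2. The groups overlapped and the log2 ratio of the means was 0.08, or 0.16 on the TPM scale. Any reads given to family genes without values are not in the sum of the 8 genes. With the family entered as 1 gene, the edgeR log2 fold change was also 0.08. That fold change was 0.02 with PZT-2 replicate 2, 0.04 with PANC-1 replicate 2 and 0.13 with PZT-2 replicate 1 left out. The 7 MT1 genes alone summed to 3180 and 3189 in PANC-1 and to 3953 and 3999 in PZT-2, without overlap (log2 ratio 0.32). They include the pseudogenes MT1DP and MT1L, the latter with means of 1503 in PANC-1 and 1880 in PZT-2. The 5 metallothionein members with values, MT2A included, summed to 9626 and 9166 in PANC-1. In PZT-2 they summed to 9080 and 9981, with overlap (log2 ratio 0.02). No test of the sums was made, and an exact permutation test of 2 against 2 libraries cannot go below p = 0.333.

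Shares of the pool were compared per length. MT2A held 70.3% and 68.9% of family TPM in PANC-1 and 62.8% and 65.1% in PZT-2. The share of MT1X was 2.03% and 1.84% in PANC-1 and 3.91% and 3.92% in PZT-2, and that of MT1E was 10.6% and 11.2% against 10.9% and 10.2%. The MT2A and MT1X shares did not overlap between the lines, and the MT1E shares did. MT1M and MT1F each held at most 0.361% of the pool in every library.

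**Figure D3:**
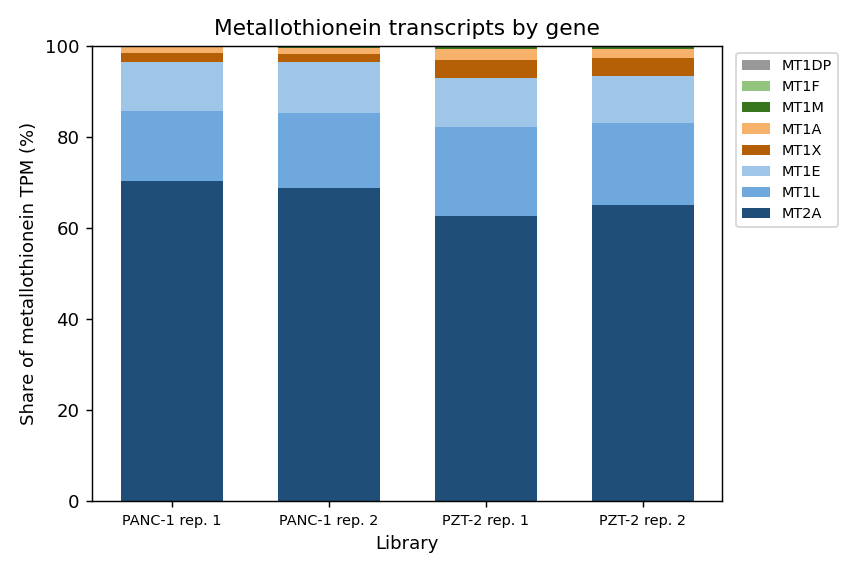
Share of summed metallothionein TPM (y axis, percent) held by each of the 8 family genes with values, as a stacked bar for each library. MT2A falls from 70.3% and 68.9% in the PANC-1 bars to 62.8% and 65.1% in the PZT-2 bars, and the MT1X, MT1A and MT1L segments are wider in the PZT-2 bars.

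Along the cluster, the called genes were not contiguous. MT2A and MT1E, at 0 and 17.3 kb, were not called, whereas MT1L at 9.3 kb between them, MT1M at 24.0 kb, MT1A at 30.5 kb and MT1X at 74.2 kb from the start of MT2A were. Genes that flank the cluster were mixed. Of 17 neighbours tested, 2 were called higher and 3 lower, with a median of -0.01. Among all genes tested, 14.7% were called higher and 13.7% lower. BBS2, a component of the ciliary BBSome, rose (log2 fold change 0.68, adjusted p = 0.00359). FAM192A fell by 0.44, ARL2BP fell by 0.36 and COQ9, which acts in coenzyme Q synthesis, fell by 0.32 on the log2 scale. With PZT-2 replicate 2 left out, these falls were no longer called (log2 fold changes of -0.31, -0.39 and -0.35). Those of ARL2BP (-0.33) and COQ9 (-0.30) were also lost with PZT-2 replicate 1 left out. With the most abundant transcript alone, FAM192A (adjusted p = 0.309 from edgeR) and COQ9 (0.0540) were not called. ARL2BP kept its call in 12 of 14 alternatives, and FAM192A and COQ9 in 10 of 14 each.

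**Figure D4:**
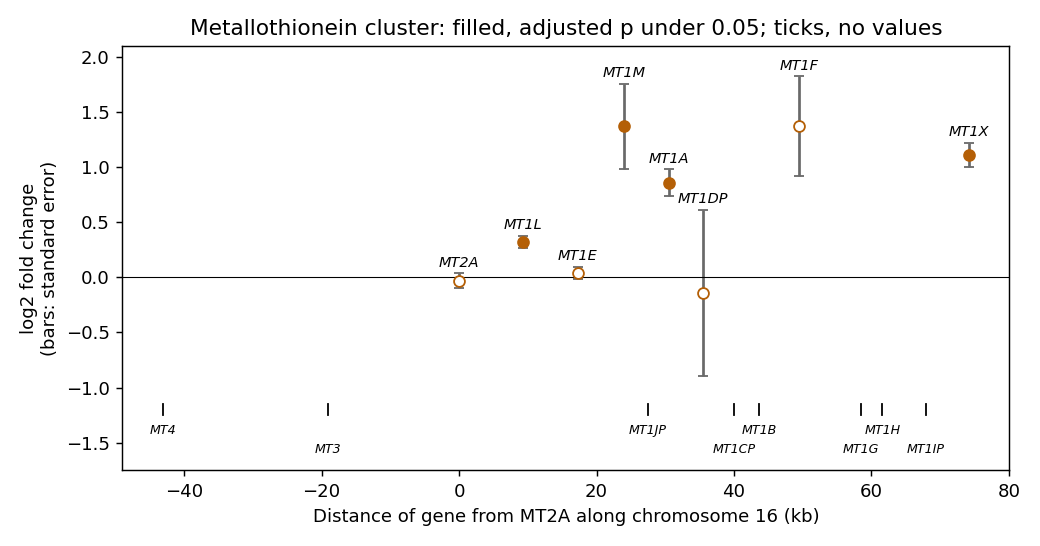
Log2 fold change with its standard error (y axis) of each metallothionein family gene with values against the distance of the gene from MT2A along chromosome 16 in kb (x axis); filled circles passed an adjusted p of 0.05, and ticks at the bottom mark family genes without values. Called genes stand at 9.3, 24.0, 30.5 and 74.2 kb, with MT1E (17.3 kb), MT1DP (35.5 kb) and MT1F (49.5 kb) not called between them.

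Of 17 transporters tested that move zinc into and out of the cytosol, 5 were called higher and 3 lower, each by less than MT1X, and 9 were not called. The background was 14.7% of genes called higher and 13.7% lower. Exporters of the SLC30 family, with SLC30A1 among them, had values for 6 of 11 genes, of which 2 were called higher and 1 lower (median 0.01). SLC30A4, a vesicular zinc transporter, rose from a mean of 212 ± 7.23 (SD, n = 2) to 302 ± 2.53 normalized counts (log2 fold change 0.51, adjusted p = 0.0117). SLC30A6 rose by 0.33 (adjusted p = 0.0349) and SLC30A5, its partner in loading zinc into the secretory pathway, fell by 0.31 (adjusted p = 0.0189), both in log2 units. Of these 3 exporter calls in edgeR, 0 were left with either PZT-2 library left out or with limma-trend on TPM, where 2 to 3 exporters had an unadjusted p under 0.05.

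Importers of the SLC39 family had values for 11 of 14 genes, of which 3 were called higher and 2 lower (median -0.01). SLC39A14, a plasma membrane importer of zinc, iron and manganese, went from a mean of 1814 ± 55.5 (SD, n = 2) to 2334 ± 85.2 normalized counts (log2 fold change 0.36, adjusted p = 0.00673). In log2 units, SLC39A3 fell by 0.50 (adjusted p = 0.00563) and SLC39A9 fell by 0.28 (adjusted p = 0.0296). The SLC39A9 call held in 5 of 14 alternatives (adjusted p from 0.0122 to 0.374) and the SLC39A3 call in 14 of 14. SLC39A13 rose by 0.31 (adjusted p = 0.0338), but its most abundant transcript alone gave -0.87 and was called lower (adjusted p = 0.04065 from edgeR). The rise was not called with the Wald test of DESeq2 (adjusted p = 0.0743) or with the replicate block in edgeR (0.0603). The importer calls numbered 1 with PZT-2 replicate 1 left out and 2 with PZT-2 replicate 2 left out.

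**Figure D5:**
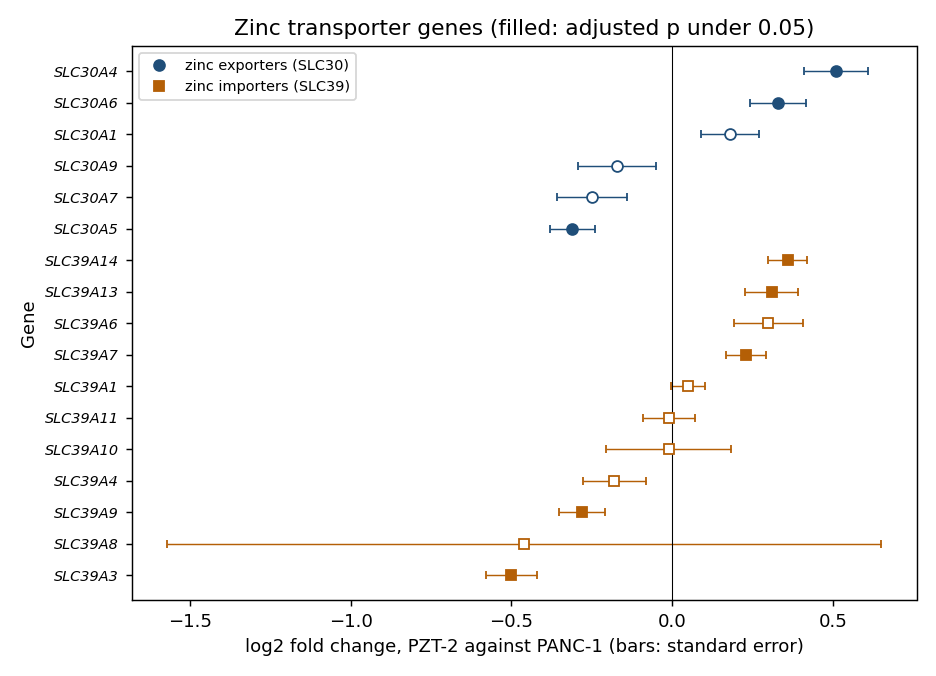
Log2 fold change of PZT-2 against PANC-1 with its standard error (x axis) for the 6 zinc exporters (circles) and 11 zinc importers (squares) tested; filled symbols passed an adjusted p of 0.05. Filled symbols stand on both sides of 0, from -0.50 for SLC39A3 to 0.51 for SLC30A4, and SLC30A1 is open at 0.18.

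The genes whose pattern over the 4 libraries was nearest to that of summed metallothionein counts, by Euclidean distance of centred log2 CPM among the 10046 genes that averaged 100 or more normalized counts, were LRFN4 (0.0122), PEX6 (0.0133), PHF5A (0.0138), PRDM4 (0.0161) and U2AF1 (0.0184). None of these 5 was called (log2 fold changes of 0.06 to 0.09), and 4 libraries give little to rank on.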

How the data were processed

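RNA-seq of 2 PANC-1 and 2 PZT-2 libraries was used. PSCR control libraries, which the study also describes, are not analysed here. Per the labels and the study's methods, the authors made stranded mRNA libraries, trimmed the paired reads (Trim Galore 0.4.1), quantified RefSeq transcripts (kallisto 0.43.0) and tested the lines (sleuth 0.29.0). The submitters' processing notes name hg19, while positions and sequences here come from GENCODE 29 and RefSeq on GRCh38, which are not the authors' index. The values used are the estimated counts deposited by the authors per transcript and library. TPM were recomputed from the recovered counts and the deposited effective lengths, and the authors' columns of p-values, q-values and effects were not used.

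Each library had been scaled by 1 factor (1.16 and 0.935 for PANC-1, 1.03 and 1.01 for PZT-2), shown by 45.3 to 46.5% of values from 0.5 to 30 being within 0.01 of a whole number once the factor was undone, against 0.815 to 2.41% before. It was undone, counts were summed over transcripts per gene and rounded. Of 31077 transcripts with values, 27049 carried a symbol, 3925 were named through RefSeq and 103 (0.0466% of counts) stayed unnamed. Genes reaching 5 counts in 2 or more libraries were tested with edgeR 4.0.16 (TMM, quasi-likelihood) in R 4.3.3, adjusted by Benjamini-Hochberg over all 15100 genes at a threshold of 0.05. Normalized counts are scaled to the mean effective library. Errors are SD over 2 libraries. The fit was tested on simulated data.

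Named were the 8 members, other metallothionein family genes with values, in each further list (zinc exporters and importers, copper handling, heavy metal and heat shock response, glucocorticoid response, neighbours of the cluster) the 4 called genes with the largest absolute change, H2AFZ and H2AFV, and the 5 genes of most similar pattern. Other genes of the lists are only counted or listed by name, except CD14 and COL1A1, whose values were given after they were seen. The members and lists were chosen with earlier results of these data known. There were 14 alternatives: RLE size factors, DESeq2 1.42.0, no filter, at least 10 counts in all 4 libraries, counts as deposited, limma-trend (limma 3.58.1) on log2(TPM + 1) and log2(TPM + 0.1), the most abundant transcript alone, length-scaled counts, a replicate block and each library left out.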

Additional observations from a re-analysis of the deposited data

How the results depend on the processing

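Of the values recomputed under the 14 alternatives, MT1X and MT1A kept their call in each, and MT2A, MT1E, MTF1 and SLC30A1 passed in none. MT1M had 9 to 41 counts per library and MT1F 8 to 25. Both limma-trend settings called 3 members, against 2 in the main fit. Members called numbered 2, and 1 with DESeq2, with at least 10 counts in all 4 libraries (where MT1F and MT1M had no value), with the most abundant transcript alone and with the replicate block, and 1 to 2 with a library left out. All genes called numbered 4285 (2222 higher, 2063 lower), 2127 (1134 and 993) with the most abundant transcript alone, and 2019 to 4597 (1086 to 2437 and 933 to 2196) with a library left out, the lowest values being without PZT-2 replicate 2, next to 2452 without PZT-2 replicate 1. They split into 2369 higher and 1446 lower with limma-trend on log2(TPM + 1), and into 2300 and 1397 on log2(TPM + 0.1). The metallothionein family count was 3 with DESeq2, at least 10 counts in all 4 libraries, the most abundant transcript or the replicate block. With both limma-trend settings that count was 5. The family count of 4 was 2 to 4 with a library left out. The zinc exporter count of 3 was 1 with DESeq2 and with the most abundant transcript, 0 with both limma-trend settings and 0 to 3 with a library left out. The zinc importer count of 5 was 3 with DESeq2, with the most abundant transcript and with the replicate block, and 1 to 5 with a library left out. Among the 3 importers called with the most abundant transcript was SLC39A13, called lower. The copper count of 6 was 2 with the most abundant transcript. The neighbour count of 5 was 3 with DESeq2 and with the most abundant transcript, and 1 to 7 with a library left out, where it was 2 without PZT-2 replicate 1. The log2 fold change of the summed family, entered as 1 gene in edgeR, was 0.08. It was 0.02 to 0.13 with a library left out. The single values were 0.02 without PZT-2 replicate 2, 0.04 without PANC-1 replicate 2 and 0.13 without PZT-2 replicate 1. As a difference of means of log2(TPM + 1) or log2(TPM + 0.1), without a fit, it was 0.16. Signs turned for MT2A (0.036 with both limma-trend settings, -0.11 to 0.046 with a library left out), for MT1DP (-1.53 to 0.55 with a library left out) and for SLC39A13 (-0.87 with the most abundant transcript). Where a line was left with 1 library, that library was assumed to vary like the other line. The cause of these differences was not tested.

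A pairing of the libraries by replicate number was not seen: over genes, the differences between replicates 1 and 2 correlated at -0.0234 between the lines. This value cannot settle how the libraries were made. With the number as a block, 3755 genes were called, and the log2 fold change of MT1M was 1.42 (adjusted p = 0.0516 from edgeR).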

Other observations

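In the list for heavy metal and heat shock response, 14 of 14 genes were tested. Of these, 8 were called higher, the near-identical pair HSPA1A and HSPA1B among them, and 1, NFE2L2, lower. The other 5, NQO1 and SLC7A11 among them, were not called. Whether these changes were a response to metal was not tested. The background over all genes tested was 14.7% called higher and 13.7% lower. The median log2 fold change of the list was 0.34 against 0.00 over all genes. TXNRD1, which reduces thioredoxin, rose from a mean of 6368 ± 54.8 (SD, n = 2) to 13321 ± 172 normalized counts (log2 fold change 1.06, adjusted p = 8.50e-05 from edgeR). GCLC, the catalytic subunit for the first step of glutathione synthesis, rose by 0.98, SRXN1, which restores oxidized peroxiredoxins, rose by 0.95, and HMOX1, the haem-degrading enzyme, rose by 0.80 on the log2 scale.

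Metallothioneins also bind copper. Of 17 copper handling genes tested, 4 were called higher and 2 lower (median 0.04), against 14.7% and 13.7% of all genes. The copper-exporting ATPases moved in opposite directions as sums of their transcripts. ATP7A had 298 and 375 normalized counts in PANC-1 and 151 and 138 in PZT-2, a change of -1.22 on the log2 scale (adjusted p = 0.00212). ATP7B had 151 and 194 against 291 and 289, a change of 0.74 (adjusted p = 0.0106). STEAP2, a metalloreductase, fell by 1.26 (adjusted p = 0.00630) and MEMO1 rose by 0.84 (adjusted p = 9.66e-04) on the log2 scale. With the most abundant transcript alone the calls of ATP7A (adjusted p = 0.126), ATP7B (0.5002) and STEAP2 (0.466) were lost, as was that of ATP7B with PZT-2 replicate 2 left out (0.0569). Of 9 glucocorticoid-responsive genes tested, 3 were called higher and 1 lower (median 0.21), beside the same shares of all genes. SGK1, a serum- and glucocorticoid-regulated kinase, went from 106 and 99.4 normalized counts to 431 and 412 (log2 fold change 2.04, adjusted p = 1.98e-04), CEBPD rose by 1.58 and DUSP1 by 0.56, while NR3C1, the glucocorticoid receptor, fell by 0.41 on the log2 scale (adjusted p = 0.0120). The NR3C1 call held in 9 of 14 alternatives, with adjusted p from 0.00171 to 0.537, and was lost with either PZT-2 library left out (0.0540 and 0.0752).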
